A study of Mus musculus with 4 samples.

Results

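Tandem acceptors are 2 alternative 3' splice sites that lie 3 nt apart at the start of an exon. The splicing table of alternative 3' splice sites (Alt3) held 2754 such sites in 2366 genes, 11.3% of its 24291 sites other than the reference site of each event. A site was taken when its distance to the reference acceptor, the most downstream one of the event, was 3 nt. Its PSI (percent spliced in) is the percent of the junction reads of the event that used the upstream acceptor, so that the mRNA keeps 3 more nt. Of the 2754 sites, 1729 in 1464 genes had a PSI in all 4 libraries and a coverage score of LOW, OK or SOK in at least 3, and these were compared. A further 616 lacked a PSI in at least 1 library, and 409 had a PSI in all libraries but too little coverage. A score of LOW began at 20 junction reads, OK at 40 and SOK at 100.

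The libraries came from N2a cells, a neuroblastoma line from the mouse, that had carried either siControl, a non-targeting siRNA, or siArglu1, an siRNA against Arglu1, over 48 h. After that, the medium held ethanol vehicle (Veh) or 100 nM dexamethasone (Dex), an agonist of the glucocorticoid receptor, for 4 h. In each of the 4 groups, the mRNA from 3 cultures was combined and gave 1 polyA-enriched library. No group thus had replicates, no p-value is given, and every interval below is a 95% interval that covers the counting of junction reads only, not the spread between cultures. The question asked of these sites was whether the choice between their acceptors differed with less Arglu1, a splicing and transcription cofactor, or with Dex. Arglu1 had 10165 (Veh) and 11825 reads (Dex) in siControl cells, and 2637 and 3254 in siArglu1 cells. After scaling, 26.7% of its siControl level was left in vehicle (25.5% to 27.8%) and 22.8% in Dex (22.0% to 23.7%). Reads on genes ranged from 66074574 to 86541444 per library, and siArglu1 Veh was the shallowest at the tandem sites, with a median of 97 junction reads a site against 133 to 148 in the others. Where 4 values are given below in the same order, those of siControl cells come first, Veh before Dex, and those of siArglu1 cells follow likewise. All 5 neuronal and sympathoadrenal markers examined (Tubb3, Stmn2, Gap43, Elavl4 and Hand2) were present, between 24.2 and 785 cRPKM, whereas Gfap, Ptprc, Cdh5 and Alb lay between 0 and 0.06 cRPKM. Each of the 5 was higher with siArglu1, with log2 ratios of 0.37 to 0.93 over both pairs, and the part of this in the values below was not tested. In such pooled RNA, more cells of a kind and more RNA per cell cannot be told apart.

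An intron ends in the bases AG, which the spliceosome recognises through U2AF and uses in the second catalytic step, when the exons are joined. Where a second AG follows after 1 base, the arrangement NAGNAG offers a pair of acceptors, and the choice between them adds or leaves out 1 codon without shifting the reading frame. Such tandems are common in mammals, and the base before each AG is known to matter: C and T are favoured over A, and G is the poorest.

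The files give positions in mm9, for which no genome was at hand. Sequence was therefore read from GENCODE M21 transcripts (GRCm38, mm10), at sites whose gene identifier and lengths of both introns matched annotated introns with a shared donor in exactly 1 place. This held for 520 of the 1729 sites, and 517 of the 520 inserted triplets (99.4%) ended in AG. The sites below show the mRNA of the annotated long form, the last 12 bases of the exon upstream, the 3 inserted bases in capitals and the next 12 bases. In Cyth2 the 3 bases are those of the annotated upstream acceptor. An exon of 3 nt listed in the same intron cannot be told apart from it, as described below. They were chosen because they were the best covered sites in use at both acceptors or differed in the same direction in both knockdown pairs.
Cnbp: tgcaggaggatgAAGcctgctataact
Pcbp2: aaggctattgggCAGgtttggatgcat
Rbm8a: gctttggctccgAAGaggggtcccgag
Gnb1: taaagccaggagCAGcaggtggatgga
Hnrnpc: gcaagcaagcagTAGagatgaagaatg
Top2a: gctccatgtcggTAGttgatcttgaaa
Immt: cagcttcagcagCAGgtgatacacttt
Dnajc4: acagacacacagCAGctcctgggaacc
Cyth2: tcctaaagctggCAGggggccgggtga
For 114 of the 520 sites an annotated transcript also ran through the end of the intron, so that both acceptors could be read. The upstream triplet ended in AG in 112 of them. The next lines give 11 intronic bases, both triplets in capitals and 12 bases of the exon, and show the common NAGNAG forms beside the remaining 2 sites, Cyth2 and Cnbp, where the triplet before the upstream acceptor was TTG.
Immt: aattatttctgCAGCAGgtgatacacttt
Dnajc4: cttttgctcttCAGCAGctcctgggaacc
Pcbp2: tttctgtctttTAGCAGgtttggatgcat
Rnf10: ctgtttcccctCAGAAGacagaggaggga
Cyth2: caccccttcccTTGCAGggggccgggtga
Cnbp: tttccttattgTTGAAGcctgctataact
On mm10, the pair of acceptors was at chr6:71852763-71852766 on the plus strand in Immt, at chr19:6989584-6989587 on the minus strand in Dnajc4, at chr7:45808449-45808452 on the minus strand in Cyth2 and at chr6:87845320-87845323 on the minus strand in Cnbp. All 4 lay in coding sequence in at least 1 annotated transcript.

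Among the 520 sites, 453 inserted their triplet in coding sequence and 49 in untranslated sequence only. The coding inserts fell between codons at 165 sites, after the first base of a codon at 184 and after the second base at 88, as read from the annotated phase. CAG was the inserted triplet at 365 sites (70.2%), AAG at 80 (15.4%), TAG at 54 (10.4%) and GAG at 18 (3.46%). The inserted triplet is the one that ends the intron when the downstream acceptor is used. In events with 2 acceptors, the median PSI in siControl Veh was 65.6 for CAG (329 sites, quartiles 37.5 and 82.6), 69.6 for TAG (51 sites, 31.6 and 90.9), 87.5 for AAG (73 sites, 72.1 and 97.4) and 100 for GAG (18 sites, 94.3 and 100). The upstream acceptor was thus used most where the downstream one was GAG. The other 3 libraries gave 63.6 to 66.5 for CAG, 69.5 to 75.1 for TAG, 87.7 to 89.0 for AAG and 99.7 to 100 for GAG. For the upstream triplet the order was another: the median PSI was 77.3 where it was CAG (57 sites), 57.2 where it was TAG (16 sites), 30.1 where it was AAG (7 sites) and 0 where it was GAG (3 sites, at most 0.38). When a match of either intron was enough, an alternative chosen after the data were seen, the medians by upstream triplet were 91.9 for CAG, 94.4 for TAG, 31.1 for AAG and 0 for GAG, so that the order of CAG and TAG turned. The most frequent pair, CAGCAG, made up 51.2% of the pairs that could be read in events with 2 acceptors. It had a median PSI of 72.2 over 43 sites, which ranged from 5.18 to 95.2. TAGCAG, with 11 sites, had a median of 33.7. The share of C and T in the 20 bases before the tandem was known for 79 sites and ran from 50% to 90%. Its correlation with PSI in siControl Veh was weak across these sites (Pearson's r of -0.17, Spearman's rho of -0.23), which are not independent replicates. These 520 sites are annotated in both forms, and a site where 1 acceptor is hardly used is less likely to be among them.

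Over the 1729 sites, the upstream acceptor was the main one. The median PSI was 91.3 (Veh) and 90.8 (Dex) in siControl cells and 91.2 and 91.6 in siArglu1 cells, with lower quartiles of 40.7 to 42.2 and upper quartiles of 98.7 to 99.2. The PSI was above 50 in all 4 libraries at 1227 sites and below 50 in all 4 at 439. At 809 sites it stayed above 90, and at 220 below 10. In between, 475 sites (27.5%) kept a PSI of 10 to 90 in all 4 libraries, against 746 of the 14934 Alt3 sites at other distances (5%). Joint use of both acceptors was thus found at a larger share of the tandem sites than of the others, which is a description of the sites the tables hold. A site could be part of an event with more than 2 acceptors, which was the case for 270 of the 1729, and its PSI is then its share of the reads of all of them.

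**Figure D1:**
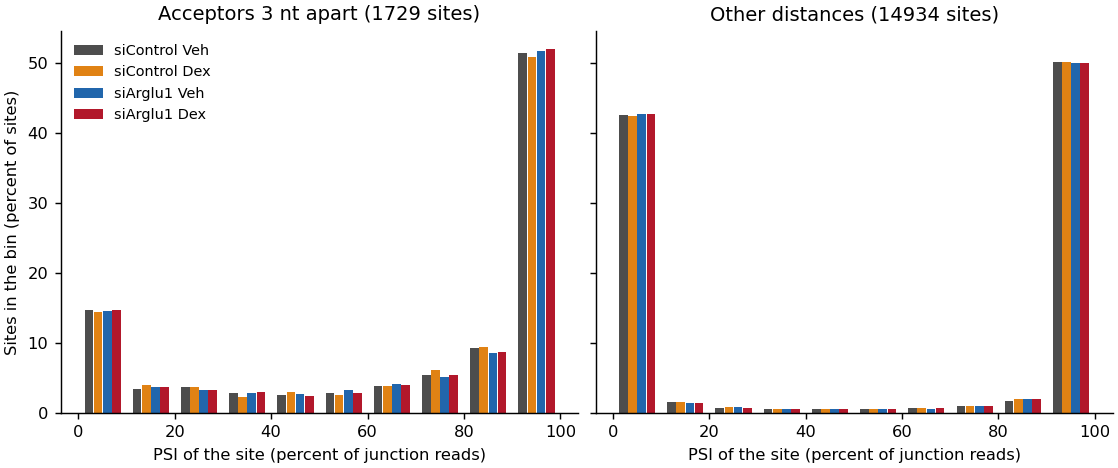
Percent of sites (vertical axis) in bins of 10 PSI (horizontal axis), for acceptors 3 nt apart (left) and other distances (right), with 1 bar for each library. In both panels the 4 libraries give nearly the same bars. A PSI of 10 to 90, with both ends counted, was found at 33.4% to 34.7% of the tandem sites in each library.

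The 10 best covered sites with a PSI of 20 to 80 stayed within 8 PSI over the 4 libraries. Cnbp, which encodes a nucleic acid binding zinc finger protein, had a PSI of 31.3 (Veh) and 32.1 (Dex) in siControl cells and of 32.2 and 32.4 in siArglu1 cells, on 2441 to 3235 junction reads. The intervals of both knockdown differences included 0, with 0.92 (-1.62 to 3.46) in vehicle and 0.29 (-2.03 to 2.61) in Dex. The bases before the upstream acceptor of Cnbp were TTG and not AG, as printed above. Gnb1, a subunit of heterotrimeric G proteins, had values of 27.1, 25.5, 26.0 and 26.6 in the same order, on at least 4799 reads. Its event had 5 acceptors, so that the PSI is a share of the reads of all of them. Rbm8a, which encodes the Y14 protein of the exon junction complex, had 55.6, 57.2, 57.4 and 57.7. Pcbp3, which encodes a poly(C)-binding protein, had 65.4, 68.9, 67.2 and 69.5. In each of these 4 genes the 4 libraries spanned less than 5 PSI. Others of the 10 were in Pcbp2, Hnrnpc, Psap and Top2a. Top2a, a DNA topoisomerase of dividing cells, had 63.9, 65.4, 68.3 and 66.2, with a knockdown difference of 4.33 (1.05 to 7.57) in vehicle and 0.78 (-2.26 to 3.81) in Dex. Hnrnpc, which binds uridine tracts of nascent RNA, had 27.6, 25.4, 27.2 and 29.1, in an event with 3 acceptors. Pcbp2, a poly(C)-binding protein, had 64.8, 68.4, 63.5 and 63.6, and Psap, the precursor of the saposins, had 62.3, 68.6, 61.1 and 61.6. In both genes siControl Dex stood above the other 3 libraries, by 3.59 PSI over siControl Veh in Pcbp2 (1.13 to 6.04) and by 6.30 in Psap (4.15 to 8.44), whereas Dex in siArglu1 gave 0.14 (-2.60 to 2.89) and 0.47 (-1.65 to 2.59). The difference between these Dex effects was not tested. The knockdown difference in Dex was -4.79 in Pcbp2 (-7.29 to -2.29) and -7.07 in Psap (-9.05 to -5.07). In Hnrnpc it was 3.66 (0.93 to 6.36). In vehicle the intervals of the knockdown differences of these genes included 0.

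The best covered sites of 6 function groups, formed by gene name, mostly used 1 acceptor. Those of RNA processing genes were in Hnrnpab (98 to 98.7 over the 4 libraries) and Ddx39b, an RNA helicase (0.21 to 0.57). Chromatin and transcription gave Chd4, the ATPase of the NuRD complex (99.2 to 99.5), and Tcf25 (99.8 to 99.9). The cytoskeletal group gave Ctnnb1, which encodes β-catenin (100 in all 4 libraries on at least 803 reads), and the dynein chain Dync1i2 (95.2 to 96.0). For small GTPases and kinases they were Rab1 (99.6 to 100) and Prkar1a (99.8 to 99.9), for the ubiquitin pathway Rnf187 (99.9 to 100) and Rnf10 (87.1 to 87.7), and for zinc finger genes Zfp91 (95.3 to 97.7) and Zfp410 (3.16 to 6.69). The events of Ddx39b and Zfp410 had 3 acceptors, so their low PSI does not show which of the others was used. A PSI of 10 to 90 in all libraries was kept by 41 of 118 sites in RNA processing genes, 36 of 119 in chromatin and transcription, 23 of 65 in the ubiquitin pathway, 22 of 86 in small GTPase regulation and kinases, 18 of 79 in the cytoskeletal group and 10 of 34 in zinc finger genes. These shares ran from 22.8% to 35.4%, around the 27.5% of all tandem sites. A difference of at least 15 PSI between siArglu1 Veh and siControl Veh was seen at 1 site of the RNA processing group, 2 each of the chromatin and ubiquitin groups, 4 each of the zinc finger and GTPase groups and 1 of the cytoskeletal group, out of 50 tandem sites in all (2.89%, against 1.19% of all 16663 Alt3 sites compared).

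Differences were counted at 15 PSI, the threshold of the study. For siArglu1 Veh minus siControl Veh, the 50 sites were 20 higher and 30 lower, against a background of 1.19%. For siArglu1 Dex minus siControl Dex it was 30 sites (1.74%), 15 higher and 15 lower, against 0.876%. For Dex in siControl it was also 30, 12 higher and 18 lower, against 0.72%, and for Dex in siArglu1 48, 28 higher and 20 lower, against 0.918%. The median difference over the tandem sites was 0 in each of the 4 comparisons, as it was at other distances. The sites past 15 were thinly covered. Their median of junction reads in the shallower library was 23 in the vehicle pair of the knockdown, against 88 for all tandem sites compared, and 31, 38.5 and 20.5 in the other comparisons in the order given above. With at least 100 reads in both libraries, 1 site passed 15 for the knockdown in vehicle (in Prmt2), 1 for that in Dex (in Acsl4) and none in the comparisons of Dex with vehicle. With a PSI of 10 to 90 and SOK in all 4 libraries, the counts past 15 were 1, 0, 0 and 0 of 196 tandem sites in the order given above, against 1.98%, 1.1%, 0.659% and 0% of the 455 Alt3 sites of this kind at any distance. In Prmt2, which encodes an arginine methyltransferase and was chosen after its values were seen, the PSI was 18.5 (Veh) and 21.7 (Dex) in siControl cells and 33.7 and 24.5 in siArglu1 cells. The difference of 15.2 in vehicle stood beside 2.79 in Dex. Acsl4, a long-chain acyl-CoA synthetase, had 28.9, 30.2, 37.7 and 48.6 in the same order, with a difference of 8.85 (-6.67 to 24.7) in vehicle and 18.5 (5.68 to 30.4) in Dex. The event in Acsl4 had 4 acceptors.

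The size of the differences followed coverage. Among sites with a PSI of 10 to 90 in all libraries, the SD of the vehicle knockdown difference over sites was 12.5 where the shallower library had 10 to 39 reads (119 sites), 7.74 at 40 to 99 (154 sites), 4.84 from 100 to under 300 (134 sites) and 3.24 from 300 reads (63 sites). The Dex pair of the knockdown gave 13.1, 7.48, 5.09 and 3.33. The Dex comparisons lay close to them, from 11.6 and 12.9 in the lowest class to 2.85 and 2.50 in the highest. At other distances the classes of 100 reads and more separated the treatments: from 100 to under 300 reads the SD was 7.53 and 7.36 for the knockdown pairs and 5.02 and 4.28 for Dex, and from 300 reads 4.70 and 4.22 against 2.45 and 2.74. The same values at tandem sites were 4.84 and 5.09 against 4.55 and 4.55, and 3.24 and 3.33 against 2.85 and 2.50. From 100 reads the SD over sites was thus larger for knockdown than for Dex at both kinds of site, by less at the tandems than at other distances. These are descriptions with no test, since sites are not replicates. At other distances, several acceptors of the same event could also be among the sites.

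**Figure D2:**
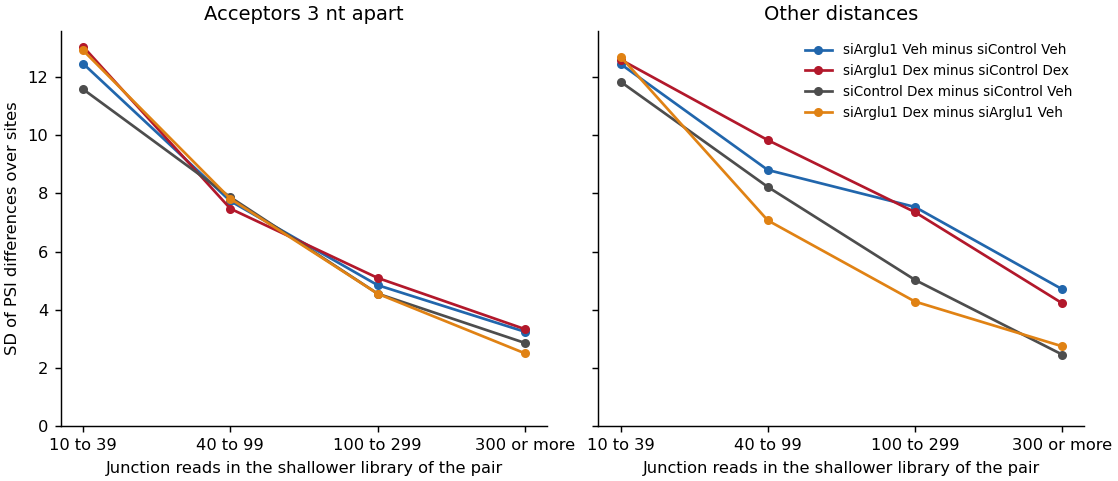
SD over sites of the PSI difference (vertical axis) against the junction reads of the shallower library (horizontal axis, 4 classes), for sites with PSI 10 to 90 in all libraries, 3 nt apart (left) and at other distances (right); lines are the 4 comparisons. At tandem sites all 4 lines fall close together from 11.6 to 13.1 down to 2.50 to 3.33. From 100 reads the knockdown lines lie above the Dex lines in both panels, by less at tandem sites.

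A second rule asked whether the 95% counting interval of the difference left out 0. At the tandem sites this share was 3.30% (57 sites) in the vehicle pair of the knockdown, 4.74% (82) in the Dex pair, 4.16% (72) for Dex in siControl and 3.93% (68) for Dex in siArglu1, against 2.79%, 3.24%, 1.9% and 1.79% of all Alt3 sites. Coverage and level differ between the kinds of site, so the rule was also read among sites with a PSI of 10 to 90 and SOK in all libraries. There, 14 of 196 tandem sites (7.14%) had such an interval for the knockdown in vehicle and 16 (8.16%) for that in Dex, whereas at other distances it was 46 of 259 (17.8%) and 59 (22.8%). Several acceptors of the same event could each be among the sites at other distances. The 2 kinds together, 455 sites, gave 13.2% and 16.5%. For Dex, tandem sites had 10 (5.10%) in siControl and 7 (3.57%) in siArglu1, and other distances had 13 (5.02%) and 13 (5.02%), against 5.05% and 4.4% over both kinds.

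The vehicle and Dex pairs of the knockdown share no library and could be compared. Only 1 tandem site of 1729 (0.0578%) passed 15 in the same direction in both, against 32 of all 16663 sites (0.192%). It was in Abcc3, an organic anion transporter, chosen after its values were seen, whose PSI was 51.5 (Veh) and 60.7 (Dex) in siControl cells and 68.6 and 78.1 in siArglu1 cells, on 35 to 66 reads. It rose by 17.1 in vehicle and 17.5 in Dex. Its interval in vehicle ran from -3.18 to 34.5 and so included 0. Across the 196 well covered sites in joint use, the knockdown differences in vehicle and in Dex had a Pearson's r of 0.17 (Spearman's rho of 0.14), and across the 259 sites at other distances 0.62 (0.52). Without the 2 sites farthest from the median in vehicle, r was 0.17 and 0.56. Over all sites compared, r was -0.025 for the 1729 tandem sites and 0.17 for the 14934 others. Both siArglu1 libraries lay on 1 side of both siControl libraries at 502 of the 1729 tandem sites (29.0%), 259 higher and 243 lower, against 24.1% of all Alt3 sites. Of the well covered sites in joint use it was 71 of the 196 tandem sites (36.2%), 36 higher and 35 lower, against 49% of all 455 sites of this kind. Sites, with shared libraries and host genes, are no independent replicates, and no p-value was taken from these correlations. The 1729 tandem sites were each in an event of their own, whereas the 14934 others were in 12662 events. Several acceptors of the same event could therefore be among the others, also among the 259.

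**Figure D3:**
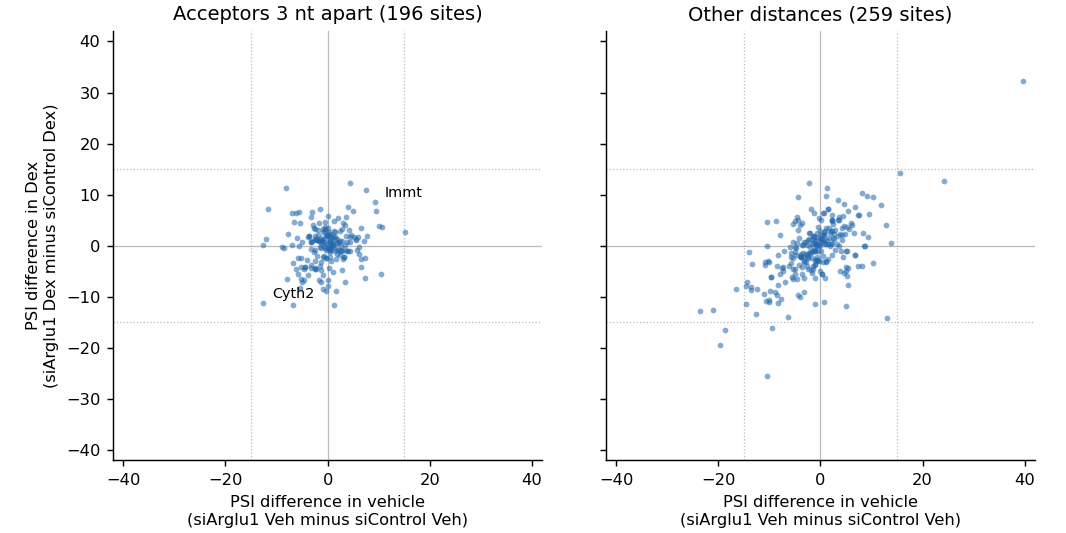
Each point is a site with PSI 10 to 90 and SOK in all libraries; the horizontal axis is the knockdown PSI difference in vehicle and the vertical axis that in Dex, and dotted lines mark 15 PSI. The 196 tandem sites (left) form a round cloud within about 15 PSI with Cyth2 and Immt named, and the 259 sites at other distances (right) spread along the diagonal.

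The interval left out 0 in the same direction in both knockdown pairs at 4 tandem sites, 2 higher and 2 lower (0.231%, against 0.51% of all Alt3 sites). Among sites with a PSI of 10 to 90 and SOK it was 3 of 196, against 5.93% of all 455. Immt, which encodes the mitofilin of the mitochondrial inner membrane, had a PSI of 39.9 (Veh) and 39.3 (Dex) in siControl cells and of 49.3 and 47.9 in siArglu1 cells. Both siArglu1 values lay above both siControl values, by 9.33 in vehicle (4.27 to 14.4) and by 8.58 in Dex (4.30 to 12.8), on 599 to 1034 reads. This event had 4 acceptors. Dnajc4, a DNAJ family protein, had 73.2, 70.2, 87.2 and 84.0 on 57 to 100 reads, with differences of 13.9 (1.14 to 26.6) and 13.8 (0.52 to 28.0).

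Another of the 4 was Cyth2, cytohesin 2, an exchange factor for ARF GTPases, which had 86.4, 85.1, 73.8 and 73.9 on 512 to 620 reads. Its event had 3 acceptors. Both siArglu1 libraries were lower than both siControl libraries, with differences of -12.6 in vehicle (-17.3 to -7.82) and -11.2 in Dex (-15.7 to -6.66). Cytohesin genes are known for an exon of 3 nt, and the table of cassette exons listed one in this intron, at 53064100 to 53064102 on chromosome 7 (mm9), between the donor and the downstream acceptor of the tandem. The PSI of that exon was 86.6, 84.6, 73 and 75 in the same order, within 1.09 of the tandem site in each library. Including the exon and using the upstream acceptor both add 3 nt at the same junction, and the 2 cannot be told apart in these tables. The bases before the upstream acceptor were TTG, as printed above.

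All tandem sites were therefore held against the 87 exons of 3 nt in the cassette table. For 8 of the 1729, such an exon lay between the same donor and downstream acceptor, and at 5 of them both PSI values were within 5 of each other in all libraries. Ncam1, a neural cell adhesion molecule, had a site PSI of 71.8, 71.1, 75 and 68.8 and an exon PSI of 72.3, 70.0, 76.5 and 72.2. Tbc1d4, a RAB GTPase-activating protein of the insulin response, had 20.8, 27.9, 25.2 and 19.1 at the site and 21.2, 28.2, 23 and 14.3 at the exon, on 31 to 77 reads at the site. Asxl1, a chromatin regulator, had both values above 97 in every library, and Cyth3, another cytohesin, both below 1. In Gnas, the stimulatory G protein α subunit, the site had 9.20 to 11.3 and the exon 5.47 to 6.35. Map4k5 had 86.8 to 93.9 at the site and 94 to 100 at the exon. In Odf2, a centrosomal protein, the values were apart, with 8.47 to 17.3 at the site and at most 1.02 at the exon. These genes were named after their values were seen.

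**Figure D4:**
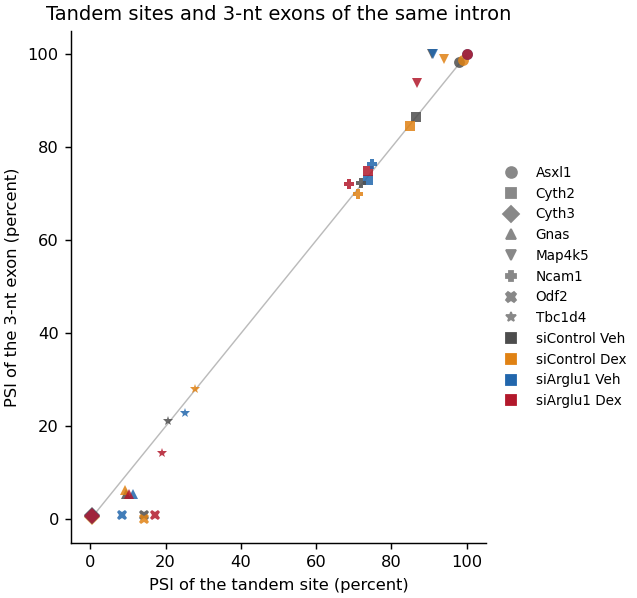
PSI of the tandem site (horizontal axis) and of the 3-nt exon listed in the same intron (vertical axis) for 8 genes (symbols) in the 4 libraries (colours); the line marks equal values. Cyth2, Ncam1 and Tbc1d4 lie along the line and Odf2 lies below it.

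Among sites with OK or SOK in all libraries, the 10 with the largest positive difference in both knockdown pairs, ranked by the smaller one, were, beside Immt and Dnajc4, in Rg9mtd3, Cox18, Acsl4, Cbll1, Cbx7, Cnnm3, Fam114a2 and 5830418K08Rik. Their smaller difference ran from 7.57 in 5830418K08Rik to 13.8 in Dnajc4. Cox18, which inserts a cytochrome oxidase subunit into the mitochondrial membrane, had 40.7 (Veh) and 32.8 (Dex) in siControl cells and 51.1 and 54.3 in siArglu1 cells. It passed 15 in Dex, with 21.5. Its interval left out 0 in Dex (6.86 to 34.7) and not in vehicle (-5.70 to 25.6). Cbll1, an E3 ligase that is part of the m6A methylation complex, had 74.6, 70.7, 85 and 78.9. Cbx7, a Polycomb protein, had 87.6, 84.9, 96.7 and 93.1. For both, the 2 intervals included 0.

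The 10 largest negative differences by that rule included, beside Cyth2, in Nt5dc1, Sun1, Apbb3, Prpf40b, Wdsub1, Cdca7l, Timeless and Cep152, with smaller differences from -6.62 in Cep152 to -11.2 in Cyth2. Sun1, a nuclear envelope protein that links to the cytoskeleton, had 69.6, 76.0, 58.8 and 63.2, with an interval that left out 0 in Dex (-22.6 to -2.64). Timeless, which acts at replication forks, had 77.4, 73.4, 70.7 and 61.7, likewise with an interval below 0 in Dex only (-19.9 to -3.05). Prpf40b, a splicing factor related to the U1 snRNP protein PRP40, had 55.7, 50.6, 47.3 and 37.3. Nt5dc1 had 97.6, 93, 78.6 and 83.3, and passed 15 in vehicle with -18.99 (-33.6 to -4.93). Besides Cyth2, no site of these 10 had intervals without 0 in both pairs.

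For Dex, the pairs in siControl and siArglu1 likewise share no library, and their differences had an r of -0.024 across the 196 tandem sites. Past 15 in the same direction in both were 2 tandem sites (0.116%, against 0.042% of all Alt3 sites), and 4 had intervals that left out 0 in both (0.231%, against 0.114%). Among sites with a PSI of 10 to 90 and SOK, the latter rule was met by 1 of 196 tandem sites, against 0.44% of all 455. Rg9mtd3, which encodes a member of a tRNA methyltransferase family, met both rules with 40.3 (Veh) and 65.7 (Dex) in siControl cells and 49.6 and 97.8 in siArglu1 cells, on 51 to 96 reads. Both Dex libraries were higher than both Veh libraries, by 25.4 in siControl (7.27 to 41.3) and 48.2 in siArglu1 (35.6 to 59.6). The other site past 15 was in Cacna1b, the pore subunit of the N-type calcium channel, with 71.1, 46.7, 84.6 and 60.9 on 13 to 38 reads only. Its interval left out 0 in siControl (-44.7 to -1.02) and included it in siArglu1 (-46.7 to 8.01). Tmco3 had 54.3, 40.1, 56.3 and 45.6, with Dex differences of -14.3 (-24.2 to -3.94) and -10.7 (-20.8 to -0.33). Ankrd27, a RAB effector, had 91.3, 100, 86.9 and 97.9. The rule for named sites added Ipmk, an inositol polyphosphate kinase, with 24.0, 35, 26.7 and 35.9, and Mdc1, a mediator of the DNA damage response, with 30.3, 40.4, 23.3 and 38.2, as well as Akap11, Uckl1, Slc39a11, Pigo, Mbd6 and Cep152. Their smaller Dex difference ran from 6.88 in Uckl1 to 10.97 in Akap11 among those higher in Dex, and from -8.42 in Mbd6 to -11.7 in Cep152 among those lower.

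**Figure D5:**
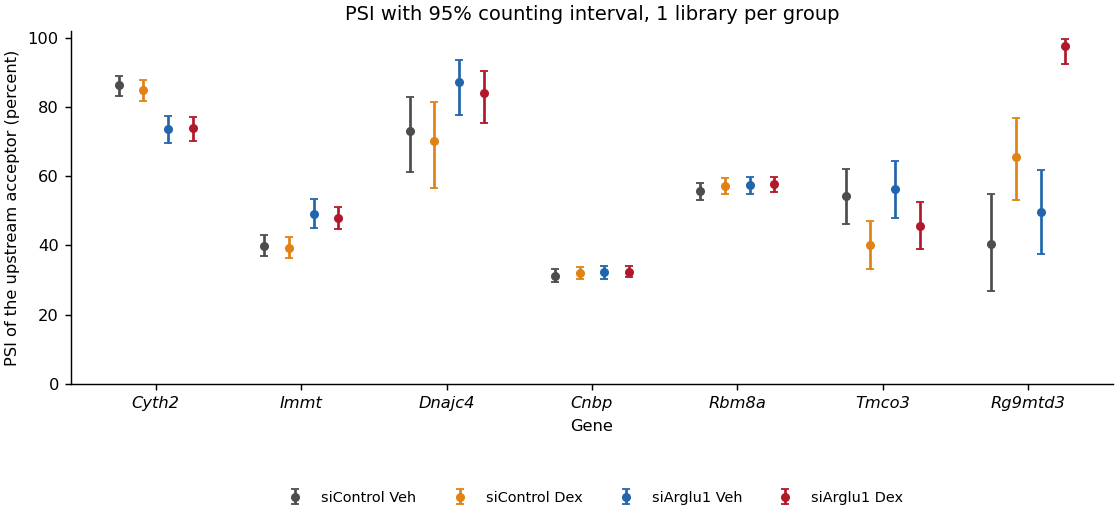
PSI of the upstream acceptor (vertical axis) at 7 tandem sites (horizontal axis), with 1 point for each library and bars for the 95% counting interval. At Cyth2 the value cannot be told apart from inclusion of the short exon listed in the same intron. In Cyth2 and Immt the bars of both siArglu1 libraries lie apart from both siControl bars, in Tmco3 and Rg9mtd3 the points lie apart by Dex with some overlap of bars, and in Cnbp and Rbm8a all 4 bars overlap.

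The genes that recognise and use acceptors were read from the gene counts. The list held 23 genes of 3' splice site and branch site recognition, of which 22 were compared, and 12 of the second catalytic step. A log2 ratio of at least 0.81 in size was the threshold of the study for knockdown. In vehicle 4 of the 34 genes compared passed it, 2 higher and 2 lower, against 15.7% of all genes in either direction (7.27% higher, 8.39% lower). In Dex 1 passed it, lower, against 12.3% (6.56% higher, 5.69% lower). Prpf18, a second-step factor that acts when the 3' splice site is used, had 9539 (Veh) and 10038 reads (Dex) in siControl cells and 4059 and 5243 in siArglu1 cells. Its log2 ratio was -1.19 in vehicle (-1.25 to -1.14) and -1.21 in Dex (-1.25 to -1.16). Prpf8, the core protein of the spliceosome, passed in vehicle with -0.82 and had -0.57 in Dex. The SF3b subunits Sf3b5 and Phf5a passed in vehicle with 0.82 and 0.81, and had 0.52 and 0.54 in Dex. Both calls were lost without TMM factors or from cRPKM, where the vehicle ratios were 0.77 for Sf3b5 and 0.76 for Phf5a and no listed factor passed 0.81 upwards, while the 2 lower calls held. The U2AF subunits U2af1 (0.12 and -0.059) and U2af2 (0.10 and 0.063) were near 0 in both pairs, as was Slu7, a second-step factor (-0.094 and -0.059). Sf1, the branch point binding protein, had -0.57 and -0.48. The medians were 0.073 and -0.057 for recognition and -0.14 and -0.049 for the second step, beside 0.021 and 0.023 for all genes. Whether these levels bear on the PSI values was not tested.

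The 1464 host genes had a median of 19.8 cRPKM in siControl Veh, against 11 for all genes compared. At a log2 ratio of 0.81, 25 were higher and 109 lower in siArglu1 in vehicle (9.15%), against 15.7% of all genes compared (7.27% higher, 8.39% lower). In Dex 21 were higher and 57 lower (5.33%), against 12.3% (6.56% higher, 5.69% lower). Across the 196 well covered sites in joint use, the PSI difference and the log2 ratio of the host gene had an r of -0.0040 in vehicle and -0.013 in Dex.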

How the data were processed

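Each of the 4 libraries was made by the authors from mRNA of 3 pooled cultures (polyA-enriched, TruSeq V2, HiSeq2500). The authors deposited PSI values as a percent of junction reads per splice site, with a coverage score in words and junction reads, made with vast-tools. Bowtie and mm9 come from the submitters' processing notes. The sources used here give no versions. The deposited gene table holds a count of reads per gene and the authors' cRPKM (RPKM corrected for mappable positions). Depth was 66074574 to 86541444 reads on genes.

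PSI intervals are Clopper-Pearson and intervals of differences Newcombe, at 95%, computed from PSI and junction reads in Python 3.11.15 with scipy 1.17.1. PSI times reads gave a whole number within rounding at 67.0% to 69.4% of sites with 2 acceptors, so the intervals are approximate. Why the others were not whole was not tested. Gene counts were scaled by TMM in edgeR 4.0.16 under R 4.3.3 (prior count of 1), for genes with at least 75 reads in all libraries together. No test was made, since each group had 1 library. Correlations of library pairs were taken only where no library is shared. Scripts were tested on simulated data.

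Members, gene lists and rules were chosen with earlier results of these data known. Named sites are, with OK or SOK in all libraries, the 10 largest rises and 10 falls by the smaller difference of both knockdown pairs and 5 of each for Dex, the 10 best covered sites with PSI 20 to 80, the 2 best covered per function group (groups by gene name), and all listed factors, of which 1 was not matched by symbol and is not analysed here. Sites chosen after their values were seen were those in Abcc3, Cacna1b, Ankrd27, Prmt2 and the genes with an exon of 3 nt. Some sites that these rules select are not reported here. The table's ratios of cRPKM between Dex and vehicle, made by the authors, were not used. Alternatives were other thresholds, coverage minimums, events with 2 acceptors only, 1 read added to each side, and other scalings of gene counts. Cassette exons of 3 nt were read from the deposited cassette table, also as PSI (percent). Alternative 5' splice sites and longer cassette exons were not used here.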

Additional observations from a re-analysis of the deposited data

How the results depend on the processing

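The counts of tandem sites past 15 PSI depended on the threshold and on coverage. They are given here for the knockdown in vehicle, the knockdown in Dex, Dex in siControl, Dex in siArglu1 and, last, for sites past it alike under both knockdown pairs, and were 50, 30, 30, 48 and 1 in the report. A threshold of 10 gave 126, 103, 87, 122 and 17, and one of 25 gave 9, 7, 5, 15 and 0. Without a coverage minimum they were 183, 154, 146, 181 and 32, and with OK or better in all libraries 7, 7, 7, 7 and 0. Taking events with 2 acceptors only, or adding 1 read to each side, kept all 5 counts within 1.5 times. The median PSI with OK or better in all libraries was 92.39 in siControl Dex and 92.415 in siArglu1 Veh, and in events with 2 acceptors 93.33 and 93.09 in siControl cells and 92.87 and 93.43 in siArglu1 cells (Veh before Dex). When a match of either intron was enough, the median was 77.29 where CAG was inserted, 97.78 for AAG, 84.2 for TAG and 99.92 for GAG. The sites matched in this way need not be annotated in both forms. Without TMM factors, or from cRPKM, 2 splicing factors passed 0.81 in vehicle in place of 4, with 0 higher in place of 2. The cause of these changes was not tested beyond what each setting leaves out. No paired analysis was possible because each group was 1 library, so that no replicate numbers could pair samples and no replicate could be left out. The vehicle and Dex pairs were set side by side instead, and a fit with siRNA and Dex as additive terms, which leaves 1 residual degree of freedom, was not run. Junction reads limit these results, since at 10 to 39 reads the interval of a difference was about 42 PSI wide, and the spread between cultures is unknown.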
